A study of Homo sapiens with 9 samples.

Results

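The human mitochondrial genome carries a small set of genes of its own, and their RNA was followed after depletion of the long noncoding RNA MILIP in MDA-MB-231, a line of breast cancer cells that lack hormone receptors and HER2 amplification. The set was taken as every row whose gene symbol starts with MT-, which gave 37 of 60612 rows, namely 13 protein genes, 2 ribosomal RNAs and 22 transfer RNAs. Of these, 18 had at least 1 count in some library and 16 had enough counts to be tested, which were the 13 protein genes, the 2 rRNAs and 1 tRNA. The cells had been transfected with MILIP siRNA1, MILIP siRNA2 or a negative control siRNA, in a lipid reagent, and were harvested after 48 hours, with 3 libraries per group. All groups therefore share the transfection, and no untransfected cells were analysed here. The comparison of interest was MILIP depletion against control. The treatment text names the siRNAs as directed at PLANE, whereas MILIP is the target named in the title and in each library's treatment. Whether the 3 libraries of a group stem from different cultures is not stated, and each p-value rests on library-to-library spread that could be purely technical.

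Mitochondrial DNA is copied into RNA as long transcripts from both strands, and most of its genes lie on one of them. Enzymes that cut at the ends of tRNAs release the rRNAs and mRNAs between them, an arrangement known as tRNA punctuation. The rRNAs and the first tRNAs lie nearest the start of the main transcript, a mitochondrial RNA polymerase encoded in the nucleus makes all of it, and the amount of each mature RNA also depends on how long it lasts. The proteins are core subunits of respiratory complexes I, III and IV and of the ATP synthase, complex V. The tRNAs and rRNAs serve only the mitochondrial ribosome that makes them.

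Libraries held 15281220 to 19759371 counts. MILIP, the targeted RNA, had 19, 11 and 37 counts with siRNA1 and 10, 19 and 6 counts with siRNA2, against 133, 126 and 148 counts with the control siRNA. VIM, CD44 and AXL, genes typical of this line, were present in all 9 libraries, and ERBB2 stood at 50.1 to 76.1 CPM (counts per 1000000 after TMM scaling). AXL was lower with both siRNAs, at a mean of 103 CPM with siRNA1 and 273 CPM with siRNA2, against 1004 CPM with control siRNA. CD44 had means of 656 and 932 CPM with siRNA1 and siRNA2, against 830 CPM. VIM had 4619 and 4073 CPM, against 4780 CPM. The oestrogen receptor ESR1 had 6 to 17 counts per library and PGR had 1 count in all 9 libraries together. Of 3 markers of leukocytes, endothelium and fibroblasts, PTPRC had 1 count in all, while PECAM1 and COL1A2 differed between groups. Their summed level was 3.03 to 4.62 CPM with siRNA1 and 10.1 to 10.7 CPM with siRNA2, against 4.47 to 6.98 CPM with control siRNA, and its part in the mitochondrial values was not tested.

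The gene rows are packed end to end, with little or no space between them. Of the 13 protein genes 12 lie on the plus strand of the reference, as do both rRNAs and 14 of the 22 tRNAs, and MT-ND6 and 8 tRNAs lie on the minus strand. The protein genes MT-ATP8 and MT-ATP6 share 46 bases, and MT-ND4L and MT-ND4 share 7 bases, so reads there match both members of a pair. Whether such reads were counted for both members, for either or for neither is not given. The counts of these genes may therefore be too low. The reference sequence of both overlaps is shown because it limits how far the members of each pair can be told apart (GENCODE 29, GRCh38, plus strand, 5′ to 3′, overlap in capitals).
MT-ATP8 and MT-ATP6, MT:8521-8578: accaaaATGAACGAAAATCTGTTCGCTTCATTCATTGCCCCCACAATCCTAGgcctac
MT-ND4L and MT-ND4, MT:10750-10776: acctactccaATGCTAAaactaatcgt

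In 6 of the 13 protein genes (MT-ND1, MT-ND2, MT-CO3, MT-ND3, MT-ND4 and MT-CYB) the annotated sequence ends in an incomplete codon, T or TA, which the poly(A) tail completes into a stop codon.

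The tRNA rows are 59 to 75 bases long, and 3 of the 22 held any count. They are shown because they are the whole of the tRNA signal in these libraries. The DNA form of each RNA is given 5′ to 3′ on its own strand, with the anticodon in capitals.
MT-TP (proline, minus strand, MT:15956-16023): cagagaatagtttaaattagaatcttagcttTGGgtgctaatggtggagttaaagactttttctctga
MT-TF (phenylalanine, plus strand, MT:577-647): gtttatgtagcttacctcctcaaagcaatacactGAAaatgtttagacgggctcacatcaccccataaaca
MT-TC (cysteine, minus strand, MT:5761-5826): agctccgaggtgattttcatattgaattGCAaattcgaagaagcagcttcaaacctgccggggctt

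Per length, the 2 messages of complex IV with the most RNA led the set. In FPKM, MT-CO1, the catalytic subunit of cytochrome c oxidase, stood at 9770 ± 173 with siRNA1 and 8413 ± 192 with siRNA2, against 9005 ± 76.7 with control siRNA (SD, n = 3 each, as throughout). MT-CO2, which receives electrons from cytochrome c, stood at 9341 ± 782 and 7428 ± 91.4 FPKM with siRNA1 and siRNA2, against 8177 ± 490 FPKM with control siRNA. In control libraries there followed MT-CO3 (4520 FPKM), MT-ATP6 (4175), MT-ND4 (4134), MT-ND4L (3608), the large rRNA MT-RNR2 (3486), MT-ND1 (2723) and MT-ND2 (2693). At the low end came MT-CYB (1712 FPKM), MT-ND5 (1531), MT-ND3 (1295), the small rRNA MT-RNR1 (824), MT-ATP8 (794), MT-ND6 (690) and MT-TP (603). Neighbours in this order whose control libraries overlapped were MT-CO3 with MT-ATP6, MT-ATP6 with MT-ND4, MT-ND4L with MT-RNR2, MT-ND1 with MT-ND2, MT-RNR1 with MT-ATP8, and MT-ATP8 with MT-ND6. FPKM of MT-TP rests on a row of 68 bases, and of MT-ATP8 on 207 bases of which 46 are shared. If reads over the shared bases were left out of the counting, the FPKM of MT-ATP8 is too low. The RNA selection of the libraries is not given. The ranks of the rRNAs among the messages may therefore differ from those in the cells.

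**Figure D1:**
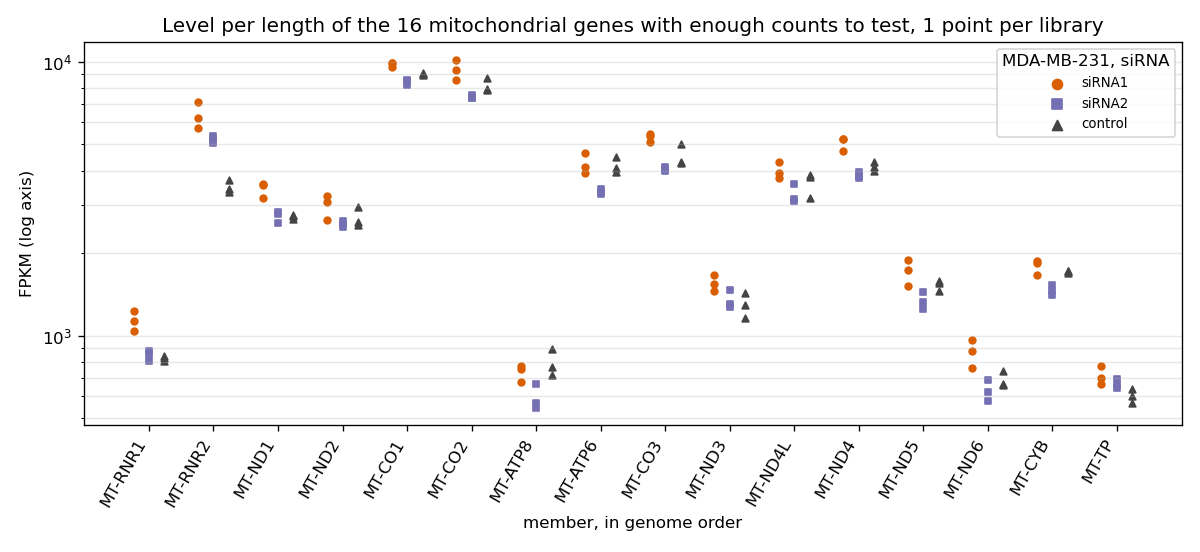
FPKM of the 16 tested mitochondrial genes on a log axis, in genome order, with 1 point per library (circles siRNA1, squares siRNA2, triangles control siRNA). MT-CO1 and MT-CO2 are the highest in every group, and the siRNA1 and siRNA2 libraries of MT-RNR2 (5049 to 7124 FPKM) all lie above its control libraries (3344 to 3691 FPKM).

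The large mitochondrial rRNA rose with both siRNAs and the small one with siRNA1. Against the background of all genes, 25.1% of 15345 were called higher with siRNA1 and 27.2% with siRNA2, and 11.8% were called higher with both. MT-RNR2 (ENSG00000210082, MT:1671-3229), the RNA of the large ribosomal subunit that forms its peptidyl transferase centre, had 9673, 10907 and 8802 CPM with siRNA1 and 8510, 8180 and 7855 CPM with siRNA2. The control libraries had 5757, 5261 and 5407 CPM, so the lowest library of either siRNA lay above the highest control library. This amounts to a log2 fold change of 0.84 with siRNA1 (SE 0.061, adjusted p = 2.28e-11) and 0.58 with siRNA2 (SE 0.06, adjusted p = 1.14e-08), or 1.79-fold and 1.49-fold, by the quasi-likelihood test of edgeR, adjusted over all genes by Benjamini-Hochberg, as for every adjusted p below.

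MT-RNR1 (ENSG00000211459, MT:648-1601), the RNA of the small subunit that decodes mRNA, had 1068, 1150 and 981 CPM with siRNA1 and 837, 838 and 768 CPM with siRNA2, against 789, 809 and 779 CPM with control siRNA. All siRNA1 libraries were above all control libraries, while the siRNA2 libraries overlapped them. It rose by 0.43 on the log2 scale with siRNA1 (SE 0.058, adjusted p = 9.43e-07) and did not pass with siRNA2 (0.039, 95% interval -0.079 to 0.16, adjusted p = 0.584). CPM is a share of a library, so changes in the mix of cells, in mitochondrial genomes per cell and in RNA per genome cannot be told apart.

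**Figure D2:**
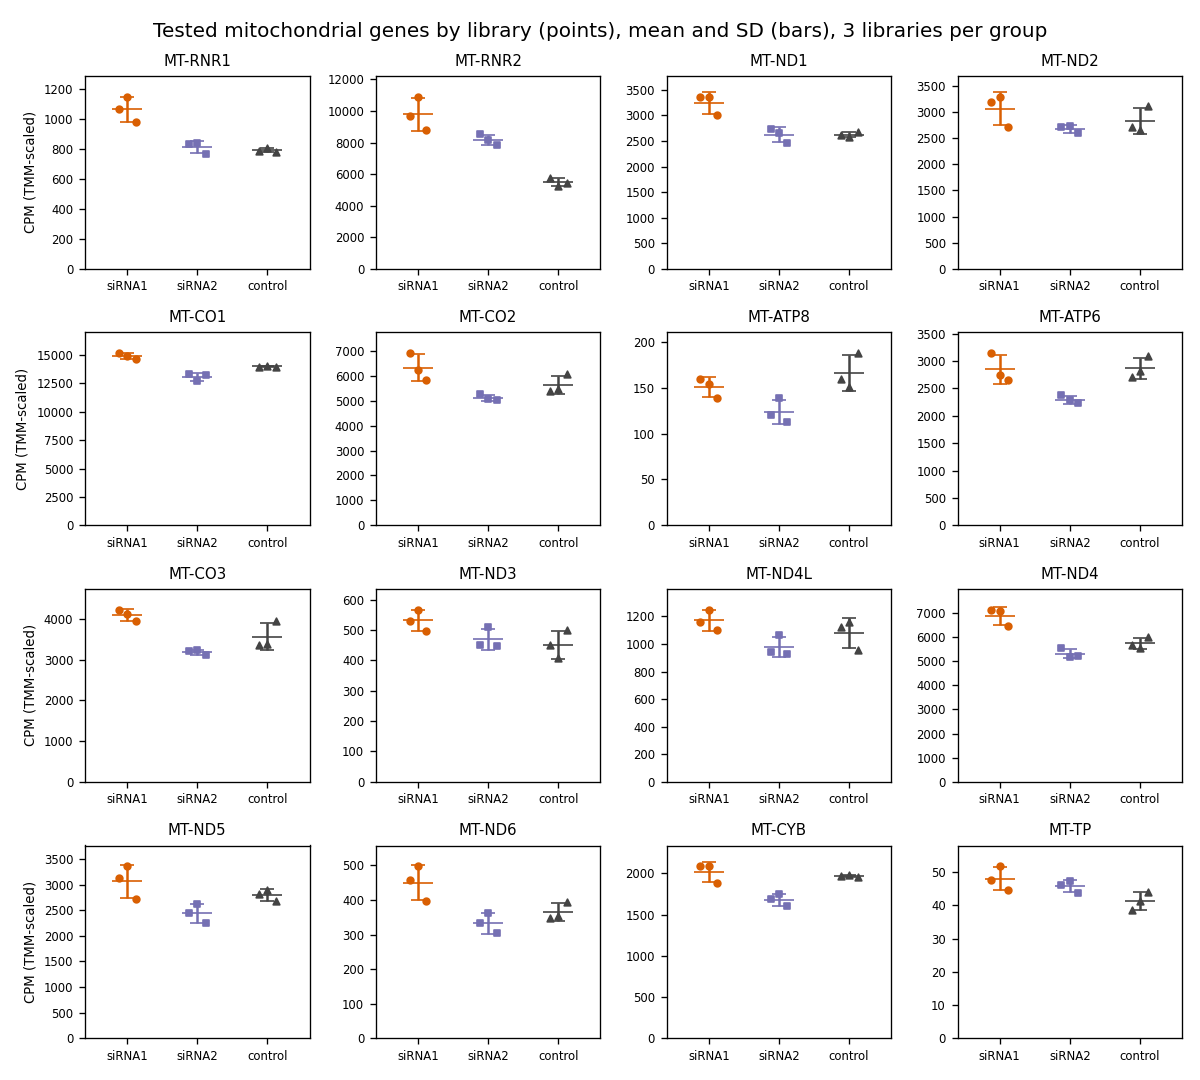
CPM of the 16 tested mitochondrial genes, 1 panel each with the axis from 0, 1 point per library, and the mean and SD of the 3 libraries of each group as bars. MT-RNR2 separates both siRNA groups from control, whereas MT-ATP6 and MT-CYB are lower with siRNA2 (2295 and 1679 CPM on average) than with control siRNA (2866 and 1968 CPM).

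With siRNA1, 6 of the 13 protein messages rose and 0 fell (46.2% higher, against 25.1% of all genes called higher and 25.3% called lower). Messages are counted by gene here and below. MT-ATP8 overlaps MT-ATP6 and MT-ND4L overlaps MT-ND4, and the members of each pair are not separate evidence. Over the 13 genes the median log2 fold change was 0.13, against 0.0032 over all tested genes. At an unadjusted p below 0.05, 0 fell with edgeR, and 0 fell with DESeq2 after adjustment. In 4 of the 13 every siRNA1 library lay above every control library (27.3% of all genes), and in 0 below (26.5%). Of the 7 messages of complex I, the NADH dehydrogenase, 4 rose, which were MT-ND1, MT-ND3, MT-ND4 and MT-ND6.

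MT-ND1, which helps form the quinone site and lies next after the rRNAs, had 3367, 3360 and 3003 CPM with siRNA1, against 2616, 2576 and 2676 CPM with control siRNA. MT-ND4, a proton-pumping subunit, had 7139, 7075 and 6445 CPM with siRNA1, against 5669, 5549 and 6003 CPM with control siRNA. For both, all siRNA1 libraries lay above all control libraries, with log2 fold changes of 0.31 (SE 0.054, adjusted p = 4.11e-05) for MT-ND1 and 0.26 (SE 0.051, adjusted p = 1.31e-04) for MT-ND4.

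MT-ND6, the one protein gene of the minus strand, had 458, 498 and 396 CPM with siRNA1, against 348, 353 and 395 CPM with control siRNA. The lowest siRNA1 library exceeded the highest control library by little, and the gene rose by 0.303 on the log2 scale (SE 0.074, adjusted p = 0.00141). Plus-strand transcripts run across this row, and since the strand setting is not known, their reads cannot be told apart from those of MT-ND6. MT-ND3 rose as well (531, 567 and 497 CPM with siRNA1, against 449, 406 and 499 CPM with control siRNA, log2 fold change 0.23, adjusted p = 0.00642), with overlapping libraries, and it lost its call without control library 2 (adjusted p = 0.074).

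Of complex IV, MT-CO3 had 4233, 4126 and 3946 CPM with siRNA1, against 3371, 3383 and 3961 CPM with control siRNA (log2 fold change 0.2, SE 0.056, adjusted p = 0.00465). MT-CO2 had 6905, 6242 and 5816 CPM with siRNA1, against 5381, 5472 and 6058 CPM with control siRNA (log2 fold change 0.17, SE 0.058, adjusted p = 0.0194). In both, control library 3 reached into the range of the siRNA1 libraries. The call was lost without siRNA1 library 1 for MT-CO3 (adjusted p = 0.0551) and MT-CO2 (0.318), and for MT-CO2 also without control library 1 (0.0979) or 2 (0.0851). MT-CO1 had 15161, 14928 and 14621 CPM with siRNA1, against 13983, 14057 and 13931 CPM with control siRNA. Its libraries did not overlap, but it missed the threshold (log2 fold change 0.091, 95% interval 0.0015 to 0.18, adjusted p = 0.0847), which it passed among genes with a mean FPKM of at least 1 (0.0402).

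The messages of complexes III and V did not pass with siRNA1. MT-ATP6, the proton channel subunit of the ATP synthase, had 3141, 2751 and 2647 CPM with siRNA1, against 2702, 2812 and 3083 CPM with control siRNA, and the groups overlapped fully (log2 fold change -0.0098, 95% interval -0.13 to 0.11, adjusted p = 0.907). MT-ATP8, an accessory subunit of the same membrane part, had a log2 fold change of -0.14 (95% interval -0.31 to 0.024, adjusted p = 0.149), and MT-CYB, the cytochrome b of complex III, 0.036 (95% interval -0.072 to 0.14, adjusted p = 0.602). MT-ND2, MT-ND4L and MT-ND5 of complex I had 0.12, 0.12 and 0.13 (adjusted p = 0.139, 0.153 and 0.0874). MT-ND2 passed without control library 3 (adjusted p = 0.0119) or siRNA1 library 3 (0.0126), and MT-ND5 without siRNA1 library 3 (0.00754).

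With siRNA2, 6 of the 13 protein messages fell and 0 rose (46.2% lower, against 28.9% of all genes called lower and 27.2% called higher), with a median log2 fold change of -0.14, against -0.011 over all genes. By gene, 2 of the 13 were called in opposite directions with the siRNAs, 4 rose with siRNA1 and did not pass with siRNA2, 4 fell with siRNA2 and did not pass with siRNA1, and 3 passed with neither. Both genes of the ATP synthase fell, with MT-CYB, MT-ND5, MT-CO2 and MT-CO3. At an unadjusted p below 0.05, 0 rose with edgeR, and 0 rose with DESeq2 after adjustment. Without siRNA2 library 3, 3 of the 13 fell, a share below the 28.9% of all genes called lower in the reported fit. In 8 of the 13 every siRNA2 library lay below every control library (31.5% of all genes), and in 0 above (30.3%).

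MT-ATP8 had 120, 138 and 113 CPM with siRNA2, against 159, 150 and 188 CPM with control siRNA. MT-ATP6 had 2372, 2287 and 2227 CPM with siRNA2, against 2702, 2812 and 3083 CPM with control siRNA. In both, every siRNA2 library was below every control library, with log2 fold changes of -0.42 (SE 0.08, adjusted p = 7.96e-05) and -0.32 (SE 0.06, adjusted p = 6.87e-05). These 2 genes overlap and are carried on 1 message in human cells, so they are not separate evidence.

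MT-CYB had 1689, 1746 and 1601 CPM with siRNA2, against 1963, 1980 and 1962 CPM with control siRNA (log2 fold change -0.23, SE 0.052, adjusted p = 5.92e-04). MT-ND5, a pump subunit of complex I, had 2447, 2612 and 2254 CPM with siRNA2, against 2815, 2898 and 2673 CPM with control siRNA (-0.197, SE 0.064, adjusted p = 0.0114). Neither gene's groups overlapped, and MT-ND5 lost its call without siRNA2 library 3 (adjusted p = 0.103) or control library 2 (0.0582). MT-CO3 had 3210, 3231 and 3110 CPM with siRNA2, against 3371, 3383 and 3961 CPM with control siRNA (-0.17, SE 0.056, adjusted p = 0.0146). It lost its call without control library 3 (adjusted p = 0.101) or siRNA2 library 3 (0.0679). MT-CO2 had 5257, 5064 and 5030 CPM with siRNA2, against 5381, 5472 and 6058 CPM with control siRNA (-0.14, SE 0.058, adjusted p = 0.0424). That call was kept in 9 of 17 alternatives, and lost without control library 3 (0.168) or siRNA2 library 2 (0.109) or 3 (0.129). MT-CO2 and MT-CO3 were thus called higher with siRNA1 and lower with siRNA2, as were 4.34% of all genes.

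Of the 7 protein messages that did not pass with siRNA2, MT-CO1 had 13305, 12688 and 13202 CPM with siRNA2, against 13983, 14057 and 13931 CPM with control siRNA. MT-ND4 had 5534, 5191 and 5234 CPM with siRNA2, against 5669, 5549 and 6003 CPM with control siRNA. Every siRNA2 library of these 2 genes was below every control library, yet the adjusted p was 0.0566 and 0.0701. MT-CO1 passed without control library 3 (0.0271) and MT-ND4 without siRNA2 library 1 (0.0419). MT-ND4L, MT-ND6 and MT-ND2 had log2 fold changes of -0.14, -0.13 and -0.078 with overlapping libraries (adjusted p = 0.0707, 0.131 and 0.319). MT-ND4L passed without control library 3 (0.00151) or siRNA2 library 2 (0.0207), and MT-ND6 without siRNA2 library 2 (0.0464). MT-ND1 stood at 2623 ± 146 CPM with siRNA2, against 2623 ± 50.6 CPM with control siRNA, and the 95% interval of its log2 fold change was -0.11 to 0.11 (adjusted p = 0.999). MT-ND3 had a log2 fold change of 0.055 (95% interval -0.088 to 0.198, adjusted p = 0.522).

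**Figure D3:**
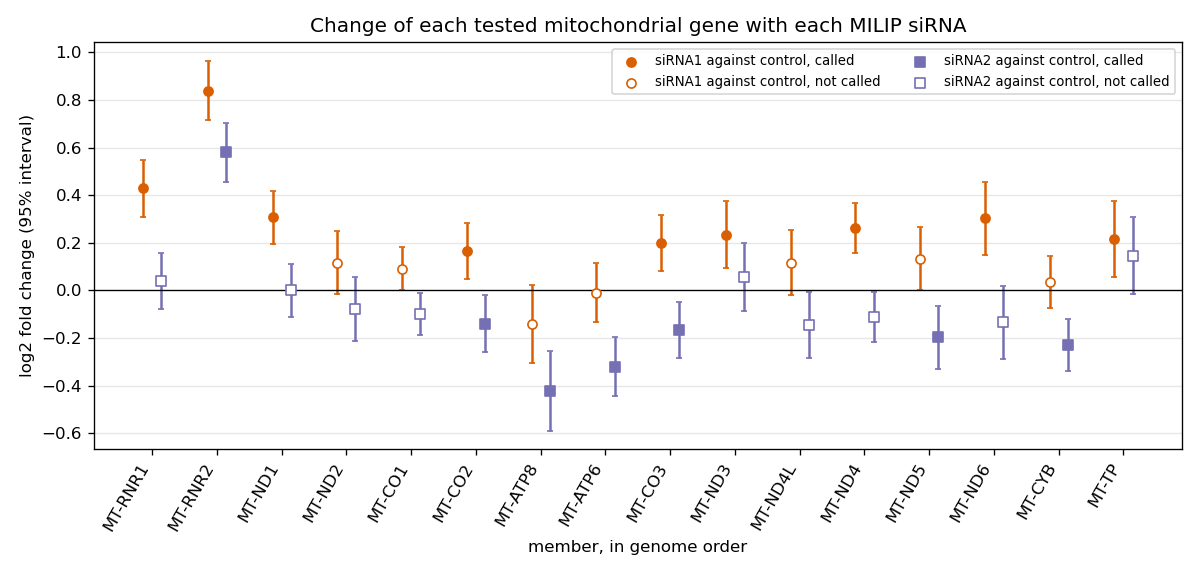
Log2 fold change of each tested mitochondrial gene with siRNA1 (circles) and siRNA2 (squares) against control siRNA, in genome order, with 95% intervals from edgeR and filled symbols for an adjusted p below 0.05. Both siRNAs share the same 3 control libraries. MT-RNR2 is filled and above 0 for both (0.84 and 0.58), and MT-ATP8 and MT-ATP6 are lowest with siRNA2 (-0.42 and -0.32).

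Set directly against siRNA1, siRNA2 gave less of every tested mitochondrial protein message and of both rRNAs. All 13 protein messages and both rRNAs were called lower, against 32.0% of all genes called lower and 28.4% called higher, with a median log2 fold change of -0.305 for the protein messages and -0.033 over all genes. The range over the protein messages was from -0.44 for MT-ND6 (333 ± 29.6 CPM with siRNA2 and 451 ± 51.4 CPM with siRNA1, adjusted p = 1.62e-05) to -0.18 for MT-ND3 (469 ± 35.3 CPM with siRNA2 and 532 ± 35 CPM with siRNA1, adjusted p = 0.0272). MT-ND4 differed by -0.37 (SE 0.051, adjusted p = 7.48e-07), MT-CO3 by -0.37 (SE 0.056, adjusted p = 4.26e-06), MT-RNR1 by -0.39 (SE 0.058, adjusted p = 2.28e-06) and MT-RNR2 by -0.26 (SE 0.06, adjusted p = 6.2e-04).

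In 10 of the 13 protein messages every siRNA2 library was below every siRNA1 library (34.4% of all genes), and the exceptions were MT-ND2, MT-ATP8 and MT-ND3. MT-ND3 lost its call in this comparison without siRNA1 library 1 (adjusted p = 0.0895) or 2 (0.112) and without siRNA2 library 1 (0.121) or 3 (0.129), and with DESeq2 (0.0754). MT-ND2 lost it without siRNA1 library 1 (0.0952) or 2 (0.0655) or siRNA2 library 3 (0.0591).

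Within the mitochondrial RNA, the sum of the 2 rRNAs, mostly MT-RNR2, was higher relative to the protein messages with either siRNA than with control siRNA. For every 100 counts of the 13 protein genes, the 2 rRNAs had 21.2, 24.3 and 21.3 counts with siRNA1 and 22.7, 22.4 and 21.8 counts with siRNA2, against 15.1, 13.97 and 13.6 counts with control siRNA. All libraries of both siRNA groups lay above all control libraries, and the ranges of the siRNA groups overlapped. Within the rRNAs the balance moved to MT-RNR2, whose FPKM divided by that of MT-RNR1 was 5.54, 5.8 and 5.49 with siRNA1 and 6.22, 5.97 and 6.26 with siRNA2, against 4.47, 3.98 and 4.25 with control siRNA. The ratio of MT-RNR1 to MT-ND1, its neighbours across MT-RNR2, was 0.318 to 0.343 with siRNA1 and 0.305 to 0.315 with siRNA2, against 0.292 to 0.315 with control siRNA. These are sums and ratios over chosen members and carry no p. The RNA selection of the libraries is not given, and its part in these proportions was not tested.

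Among the protein messages, MT-ATP6 lost ground to its neighbour MT-CO3 in both siRNA groups. The ratio of their FPKM was 0.854, 0.768 and 0.772 with siRNA1 and 0.851, 0.815 and 0.824 with siRNA2, against 0.923, 0.957 and 0.896 with control siRNA. As a share of all mitochondrial protein counts, MT-ATP6 had 5.83% ± 0.338 with siRNA1 and 5.69% ± 0.0684 with siRNA2, against 6.5% ± 0.267 with control siRNA. MT-ATP8 had 0.308% ± 0.0067 and 0.307% ± 0.032 with siRNA1 and siRNA2, against 0.375% ± 0.034 with control siRNA. MT-ND1 went up in share, to 6.65% ± 0.111 and 6.51% ± 0.242 with siRNA1 and siRNA2, against 5.95% ± 0.0833 with control siRNA. In these 3 genes no siRNA library overlapped a control library. With siRNA1 the share of MT-ND4 lay above control as well and that of MT-CYB below, and the other 8 of the 13 shares overlapped control, as did 10 of the 13 with siRNA2. MT-CO1, the largest part, was 30.6% ± 1.07 and 32.4% ± 0.958 with siRNA1 and siRNA2, against 31.8% ± 0.987 with control siRNA, and its libraries overlapped.

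**Figure D4:**
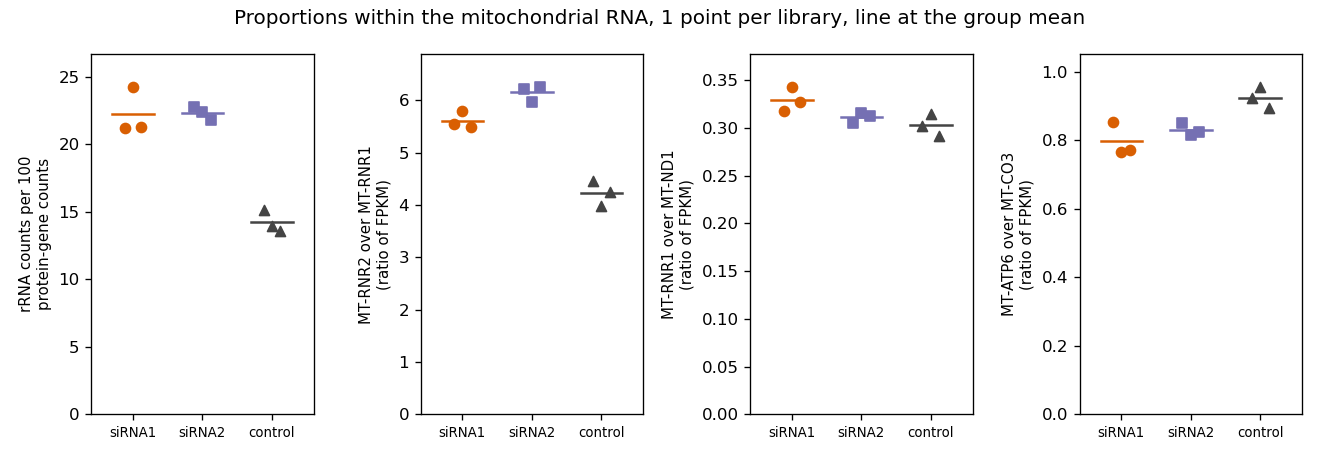
Proportions within the mitochondrial RNA, 1 point per library with a line at the group mean and axes from 0. The rRNA counts per 100 protein counts and the MT-RNR2 to MT-RNR1 ratio lie above all control libraries with both siRNAs, the MT-RNR1 to MT-ND1 ratio overlaps control with siRNA2, and the MT-ATP6 to MT-CO3 ratio lies below control with both.

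Position along the plus strand went with the fold change only loosely. Over the 14 tested genes of that strand the Spearman correlation of gene order with log2 fold change was -0.42 with siRNA1 and -0.59 with siRNA2, and over its 12 protein genes it was -0.077 and -0.41. These are descriptions over genes of the same libraries and of shared transcripts, with control libraries in common. The 2 rRNAs are the first of the 14 genes.

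Of the tRNAs, MT-TP was the one with more than a few counts. It had 750, 922 and 872 counts with siRNA1 and 861, 932 and 752 counts with siRNA2, against 625, 627 and 747 counts with control siRNA. In CPM it stood at 47.5, 51.8 and 44.8 with siRNA1, against 38.6, 41.4 and 43.9 with control siRNA, just without overlap, and was called higher (log2 fold change 0.22, SE 0.078, adjusted p = 0.0235). The call was lost on leaving out control library 1 (adjusted p = 0.125) or 2 (0.0563), or siRNA1 library 1 (0.0703) or 2 (0.109). With siRNA2 it stood at 46, 47.3 and 43.8 CPM, overlapping control (log2 fold change 0.15, 95% interval -0.015 to 0.31, adjusted p = 0.115), and passed without control library 3 (0.0496). MT-TP reads proline codons and lies on the minus strand at the far end of the gene rows. Since the strand setting is not known, reads of its 2 strands cannot be told apart here.

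MT-TF had 3, 1 and 0 counts with siRNA1 and 2, 1 and 2 counts with siRNA2, against 1, 0 and 0 counts with control siRNA. MT-TC had 0, 2 and 1 counts with siRNA1 and 0, 1 and 0 counts with siRNA2, against 0 counts in each control library. The other 19 tRNAs had 0 counts in all 9 libraries, which allows up to 3 counts per library, or 0.152 to 0.198 CPM, for counting error only. MT-TP and MT-TF are the outermost gene rows, facing the control region that holds no row, and MT-TC lies beside a gap of 31 bases. Among the tRNAs at 0, MT-TN faces that same gap, and MT-TK lies beside one of 25 bases. No level of mature tRNA can be read from these libraries.

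Stretches of mitochondrial DNA also sit in the nuclear genome, and 408 rows of the table carry the names of such copies. Of these, 50 had any count and 4 were tested, and 3 copies on chromosome 1 held 99.5% of their counts. MTATP6P1 is identical to MT-ATP6 at 671 of 681 bases (98.5%), MTND2P28 to MT-ND2 at 98.2% of aligned bases and MTCO1P12 to MT-CO1 at 98.6%. The first difference of MTATP6P1 is G19A, counted from 1 at the start of MT-ATP6. The stretch around it is shown because a read that misses such a base may be assigned to either locus (plus strand, GRCh38, differing base in capitals).
MT-ATP6, MT:8531-8559: acgaaaatctgttcGcttcattcattgcc
MTATP6P1, chr1:633700-633728: acgaaaatctgttcActtcattcattgcc

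MTATP6P1 had 5548, 5707 and 6138 counts with siRNA1 and 5272, 5385 and 4122 counts with siRNA2, against 4760, 4332 and 5802 counts with control siRNA. This was 10.2% to 12% of the MT-ATP6 count of the same library, whereas MTND2P28 had 3.57% to 4.81% of the count of MT-ND2 and MTCO1P12 0.432% to 0.503% of that of MT-CO1. Like MT-ATP6, MTATP6P1 did not pass with siRNA1 (0.099 on the log2 scale, adjusted p = 0.247) and fell with siRNA2 (-0.21, adjusted p = 0.0117). MTND2P28 and MTCO1P12 passed with neither (adjusted p = 0.285 and 0.0549 with siRNA1, 0.64 and 0.664 with siRNA2). With the copies' counts added to their mitochondrial genes, MT-ATP6 still fell with siRNA2 (-0.31, adjusted p = 1.00e-04), an alternative chosen after seeing the data.

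MTRNR2L8, a row on chromosome 11 named for its likeness to MT-RNR2, was singled out after its values were seen. It had 7, 16 and 10 counts with siRNA1 and 44, 32 and 25 counts with siRNA2, against 15, 11 and 8 counts with control siRNA. It rose with siRNA2 (log2 fold change 1.36, SE 0.36, adjusted p = 0.00239) and did not pass with siRNA1 (-0.18, adjusted p = 0.755). Its counts are too few to add to those of MT-RNR2, which had 79664 to 194237 counts per library.

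The nuclear genes that copy, process, stabilise, translate or regulate mitochondrial RNA were read from a list of 84, all of which were tested. With siRNA1, 19 rose and 23 fell (22.6% and 27.4%, against 25.1% and 25.3% of all genes), which is near the background. With siRNA2, 8 rose and 45 fell (9.52% and 53.6%, against 27.2% and 28.9% of all genes), with a median log2 fold change of -0.25, against -0.011 over all genes. With siRNA2 against siRNA1, 9 were higher and 44 lower (10.7% and 52.4%, against 28.4% and 32.0%).

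By role, siRNA2 lowered 5 of 10 genes of mitochondrial transcription, 6 of 14 of DNA replication and upkeep, 16 of 23 of RNA processing and modification, 10 of 16 of RNA stability and decay, 3 of 12 translation factors and 5 of 9 nuclear regulators. These shares are 50%, 42.9%, 69.6%, 62.5%, 25% and 55.6%, against 28.9% of all genes. In the same order, siRNA2 raised 0, 1, 0, 2, 2 and 3 (0%, 7.14%, 0%, 12.5%, 16.7% and 33.3%, against 27.2% of all genes). With siRNA1 the numbers that fell were 1, 5, 7, 5, 2 and 3 (10%, 35.7%, 30.4%, 31.25%, 16.7% and 33.3%, against 25.3% of all genes). Those that rose were 1, 4, 4, 4, 3 and 3 (10%, 28.6%, 17.4%, 25%, 25% and 33.3%, against 25.1% of all genes). TFB2M, the factor that opens mitochondrial promoters, had 15.5, 15.4 and 13.2 CPM with siRNA1 and 11, 11.1 and 13.4 CPM with siRNA2, against 17.7, 18.2 and 17.6 CPM with control siRNA. It fell with both, by a log2 fold change of -0.28 for siRNA1 (adjusted p = 0.0321) and -0.596 for siRNA2 (adjusted p = 4.50e-05). The polymerase POLRMT and the DNA-binding factor TFAM, which coats the mitochondrial genome, were looked at after their values were seen. POLRMT passed with neither siRNA (adjusted p = 0.279 and 0.2), and TFAM fell with siRNA2 (-0.22, adjusted p = 0.0109) but did not pass with siRNA1 (adjusted p = 0.171).

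MRM1, which methylates the large mitochondrial rRNA, had 10.9, 11 and 11.1 CPM with siRNA1 and 4.54, 4.98 and 4.72 CPM with siRNA2, against 13.6, 15.1 and 18.6 CPM with control siRNA. It fell with both siRNAs with a log2 fold change of -0.52 (adjusted p = 7.59e-04) for siRNA1 and -1.73 (adjusted p = 4.36e-11) for siRNA2. PUS1, a pseudouridine synthase of tRNAs, fell with both (-0.44 and -0.88, adjusted p = 5.77e-05 and 1.17e-09), as did TWNK, the helicase of mitochondrial DNA replication (-0.27 and -0.74, adjusted p = 0.00294 and 5.95e-09). PPRC1, a coactivator related to PGC-1, fell with both (-0.46 and -0.89, adjusted p = 7.35e-07 and 8.05e-12), and so did FASTKD3 (-0.43 and -0.88) and ANGEL2 (-0.82 and -0.301), both linked to mitochondrial RNA levels.

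Of the 84 genes, 7 rose with both siRNAs (8.33%, against 11.8% of all genes) and 18 fell with both (21.4%, against 11.1%). Another 8 rose with siRNA1 and fell with siRNA2 (9.52%, against 4.34% of all genes). PPARGC1A, the coactivator PGC-1 alpha that promotes mitochondrial biogenesis, had 7.03, 10.3 and 8.06 CPM with siRNA1 and 4.33, 5.43 and 6.06 CPM with siRNA2, against 3.27, 4.23 and 3.29 CPM with control siRNA (1.24 on the log2 scale for siRNA1, adjusted p = 2.35e-06, and 0.55 for siRNA2, adjusted p = 0.0144). TK2, the mitochondrial thymidine kinase, rose with both (0.45 and 1.07), as did the translation factors GFM2 (0.42 and 0.4) and MTIF3 (0.37 and 0.33). MRPL12, a ribosomal protein that also binds the polymerase, rose with siRNA1 (0.24, adjusted p = 0.0447) and fell with siRNA2 (-0.45, adjusted p = 4.38e-04). Of these 12 genes named by rule, 8 overlap another row by span, introns included: MRPL12, TWNK, TK2, PUS1, FASTKD3, MTIF3, GFM2 and PPARGC1A. Reads on shared bases may not be told apart, and whether exons are shared was not tested.

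LRPPRC and SLIRP form the complex that binds and stabilises mitochondrial mRNAs, and were singled out after their values were seen. LRPPRC had 387, 422 and 377 CPM with siRNA1 and 244, 249 and 242 CPM with siRNA2, against 348, 339 and 332 CPM with control siRNA. SLIRP had 46.8, 45.7 and 45.8 CPM with siRNA1 and 27.3, 26.7 and 29 CPM with siRNA2, against 35, 34.5 and 42.3 CPM with control siRNA. Both rose with siRNA1 (0.22 and 0.304 on the log2 scale, adjusted p = 0.0018 and 0.0035) and fell with siRNA2 (-0.47 and -0.43, adjusted p = 8.70e-08 and 1.23e-04), without overlap of libraries. With siRNA2 against siRNA1 they differed by -0.69 (adjusted p = 8.03e-11) and -0.74 (adjusted p = 3.94e-08), and the 13 mitochondrial protein messages were lower in the same comparison. Their part in those values was not tested. Of the same list, MRPL12, TOP1MT, GTPBP3, RPUSD3, RPUSD4 and ESRRA were likewise called higher with siRNA1 and lower with siRNA2. SLIRP overlaps SNW1 and C14orf178, and LRPPRC overlaps 2 small RNA rows on the other strand.

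**Figure D5:**
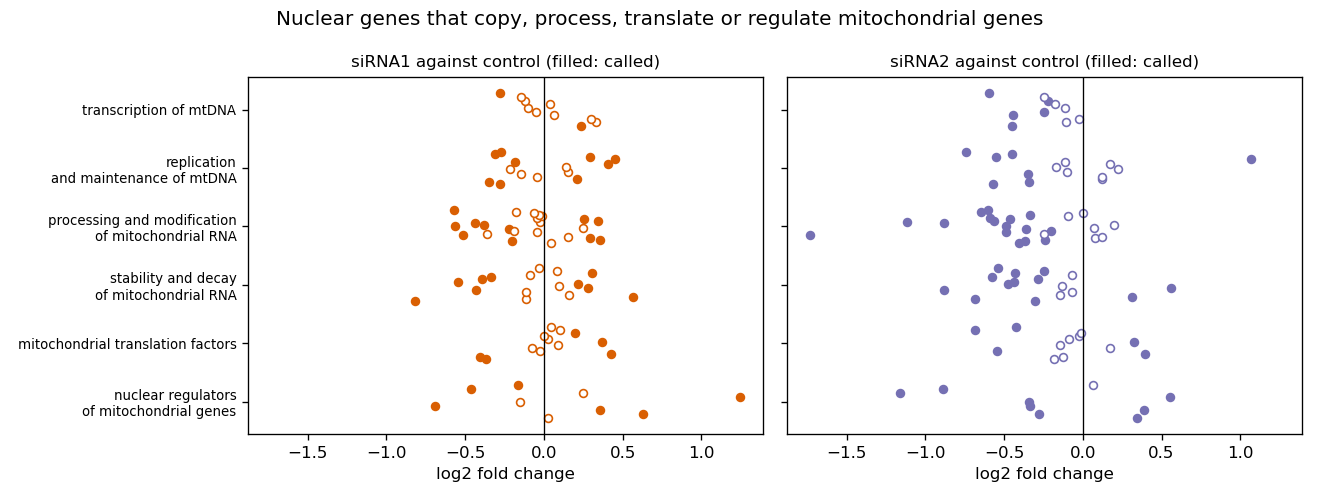
Log2 fold change of the 84 nuclear genes by role, with siRNA1 against control on the left and siRNA2 against control on the right, 1 point per gene, filled where the adjusted p is below 0.05. With siRNA2 the filled points lie mostly below 0 (45 of 53), while with siRNA1 they lie on both sides (23 below and 19 above).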

How the data were processed

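The authors deposited a count and an FPKM value for each gene and library. FPKM is scaled to gene length and to the size of the library. The submitters' processing notes list HTSeq 0.6.1, HISAT2 2.0.1, DESeq and Trimmomatic 0.30, with no steps, and hg19. The mitochondrial rows have the coordinates of GENCODE 29 (GRCh38) for 37 of 37 members. This match does not show the build of the nuclear rows. The strand setting of the counting and the RNA selection of the library are not given in the sources used here.

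After filterByExpr (at least 10 counts, total of at least 15) and TMM scaling, genes were tested on the deposited counts with edgeR 4.0.16 (R 4.3.3) in 1 quasi-likelihood fit of the 3 groups. Tests were two-sided, Benjamini-Hochberg adjustment ran over 15345 genes, and calls were made at an adjusted p below 0.05. Intervals are 95% intervals of that fit. The fitting code was checked on simulated counts before use. Members, nuclear list and comparisons were chosen with earlier results of these data known. The rule names every member that passed the filter, the counted tRNAs, up to 2 nuclear genes of each sub-list called with both siRNAs, and the 3 nuclear copies with most counts. Alternatives were DESeq2 1.42.0, limma 3.58.1 on log2(FPKM + 1) or log2(FPKM + 0.1), other scalings and filters, a replicate block, the 2 groups alone and each library left out. Sequences came from GENCODE 29 transcripts, aligned with Biopython 1.88. Depth was 15281220 to 19759371 counts per library.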

Additional observations from a re-analysis of the deposited data

Results flagged for a closer look

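MT-CO2 and MT-CO3 were called higher with siRNA1 and lower with siRNA2, and the difference between the siRNAs was called as well, at a log2 fold change of -0.305 (adjusted p = 6.25e-05) for MT-CO2 and -0.365 (adjusted p = 4.26e-06) for MT-CO3 with siRNA2 against siRNA1, by edgeR. Among all tested genes 4.34% were called higher with siRNA1 and lower with siRNA2. Each of the 4 calls against control was lost on leaving out some library, while both differences between the siRNAs kept their call in all 17 alternatives.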

How the results depend on the processing

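The calls of MT-RNR1, MT-RNR2, MT-ND1, MT-ND4 and MT-ND6 with siRNA1 and of MT-RNR2, MT-ATP8, MT-ATP6 and MT-CYB with siRNA2 held in all 17 alternatives. The protein messages lower with siRNA2 numbered 6 in the reported fit and 3 with limma on log2(FPKM + 1) or log2(FPKM + 0.1), and 3 to 7 with 1 library left out. At 3 of 13 the share is below the 28.9% of all genes called lower in the reported fit. Small values changed sign without passing the test. MT-ATP6 with siRNA1 was -0.00981 as reported, 0.00981 with a mean FPKM of at least 1, 0.0151 with limma at either pseudocount, 0.0170 with library totals only, 0.00116 with the nuclear copies added (the last 2 chosen after seeing the data) and -0.11 to 0.0403 with 1 library left out. MT-ND1 with siRNA2 was 0.00012 as reported, -0.000535 with limma, -0.00226 with the replicate block and -0.033 to 0.045 with 1 library left out. MT-CYB with siRNA1 ranged from -0.0082 to 0.085, and MT-ND3 with siRNA2 from -0.016 to 0.13. As a share of mitochondrial protein counts in place of all counts, 6 of 13 protein genes changed the sign of their log2 ratio to control with siRNA1 (MT-ND2, MT-CO1, MT-ATP6, MT-ND4L, MT-ND5 and MT-CYB) and 3 of 13 with siRNA2 (MT-ND2, MT-CO1 and MT-ND4). Of those whose libraries had not overlapped control, MT-CO1 had a log2 ratio to control of -0.0534 with siRNA1 and 0.0300 with siRNA2, and MT-ND4 0.0195 with siRNA2. The cause was not tested. Replicate numbers did not pair the libraries (correlation of same-numbered deviations -0.051 to 0.097). With the replicate block 7 protein messages were higher with siRNA1 and 7 lower with siRNA2, against 6 and 6, and 13 were lower with siRNA2 against siRNA1, as before. Scaling moved the median of all genes by less than 0.1. Of the 22 tRNAs, 21 had too few counts for a test, and the cause of those low counts was not tested.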
